A study of Mus musculus with 3 samples.

Results

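Mouse testis piRNAs that lie head to head with a 10-nt overlap are described here. piRNAs are small RNAs of animal germ cells that guide Piwi proteins to matching transcripts. A pair was formed by sequences of 24 to 32 nt listed on the same chromosome, where the end of one sequence lay 9 positions beyond the start of the other and their first 10 letters were reverse complements. The rule found 4673 pairs made of 5576 distinct sequences, which is 0.256% of the 2176742 listed sequences of 24 to 32 nt. The list holds 2219118 sequences in all. Several sequences often share a 5′ end and differ in their 3′ ends, and with each pair of 5′ ends counted once the 4673 pairs became 1566. The members were chosen by the listed position and by the first 10 letters, so the number at 10 nt is given as a description, without a test.

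The list came from 3 libraries of C57BL/6 testis, 1 per group. These were RNA bound to Tdrd1 in adult testis (genotype not given in the labels), RNA bound to Mili in adult wild-type testis, and RNA bound to Mili in Tdrd1-knockout testis at 15 days after birth. Mili is a Piwi protein, and Tdrd1 is a partner of Mili that carries Tudor domains. Genotype and age thus changed together in the knockout group. All 3 libraries are pooled in the deposited list, which has no library, read number or strand column. Partners may therefore stem from different libraries, and no pair could be compared between genotypes. Each distinct sequence counts as 1, whether it was rare or abundant, and the depth of the libraries is unknown.

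In the amplification loop known as the ping-pong cycle, a Piwi protein loaded with a piRNA cuts a complementary transcript 10 nt from the guide's 5′ end. The cut product is loaded into a Piwi protein in turn, and its 5′ end lies 10 nt into the guide on the opposite strand. Guides usually start with U, so that their partners carry A at position 10. In the mouse testis the cycle is known best from fetal germ cells, where Mili and Miwi2 take part, whereas piRNAs of meiotic cells come mostly from long single-stranded precursors.

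The following pairs show the geometry of the members. Each is the pair of 5′ ends with most sequence pairs in 1 of the 8 windows of 20 kb that held most pairs, shown by the longest listed sequence of at most 30 nt on each strand. Capitals mark the 10 letters that are reverse complements between partners. Sequences are printed as DNA, 5′ to 3′, with positions on mm9.
chr17:27461858-27461886 plus: TTTGAAATCAgggatgtctcgggaaactc
chr17:27461838-27461867 minus: TGATTTCAAAtatcctgtcccgttgtcaga
chr17:27444907-27444934 plus: ATTATTCATAgaagcctgggactgcact
chr17:27444890-27444916 minus: TATGAATAATggtggtctttcttgggg
chr6:127747106-127747134 plus: ATCTGTAAAAtggggatagtattgggtaa
chr6:127747089-127747115 minus: TTTTACAGATtgaggagactgaggttt
chr2:92427050-92427077 plus: TAATTCTTGGaacccatgttggaaacag
chr2:92427033-92427059 minus: CCAAGAATTAaacttgggtcatcgggc
chr17:27495551-27495579 plus: TACCAGTTGGataatgcacttcctattcc
chr17:27495531-27495560 minus: CCAACTGGTAgaacatgcacgcatttggtt
chr7:80962653-80962682 plus: TTTCACTTCAgttgaaatgatcactctacc
chr7:80962634-80962662 minus: TGAAGTGAAActgaacctgggcttttctt
chr5:113768749-113768775 plus: TTGACTTGAAggctgagaacatggtgg
chr5:113768730-113768758 minus: TTCAAGTCAAgactgctcggggaagtgat
chr15:74468575-74468604 plus: TAACAGTGGCtgcaaccttttaatgagggg
chr15:74468556-74468584 minus: GCCACTGTTAtggtctcacaagtaaaatg
At least 1 partner of each of these 8 pairs started with U (T in the letters), and in the pairs at 27461858 on chromosome 17, 80962653 on chromosome 7 and 113768749 on chromosome 5 both did. The pairs at 27495551 on chromosome 17 and at 80962653 on chromosome 7 lay in exons of the noncoding genes Gm49794 and Gm21269, with the plus-strand partner in the sense direction. The other 6 matched no annotated exon.

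A pair of 5′ ends could hold many sequences, because 3′ ends varied while 5′ ends stayed in register. The pair at 27461858 on chromosome 17 had 5 listed sequences on the plus strand and 6 on the minus strand, hence 30 sequence pairs, the highest number, which the pair at 27462448 on the same chromosome reached too. All 11 sequences of the former are shown, with the shared 10 letters in capitals.
plus, 24 nt: TTTGAAATCAgggatgtctcggga
plus, 26 nt: TTTGAAATCAgggatgtctcgggaaa
plus, 27 nt: TTTGAAATCAgggatgtctcgggaaac
plus, 28 nt: TTTGAAATCAgggatgtctcgggaaact
plus, 29 nt: TTTGAAATCAgggatgtctcgggaaactc
minus, 24 nt: TGATTTCAAAtatcctgtcccgtt
minus, 25 nt: TGATTTCAAAtatcctgtcccgttg
minus, 26 nt: TGATTTCAAAtatcctgtcccgttgt
minus, 27 nt: TGATTTCAAAtatcctgtcccgttgtc
minus, 28 nt: TGATTTCAAAtatcctgtcccgttgtca
minus, 30 nt: TGATTTCAAAtatcctgtcccgttgtcaga
Over all 1566 pairs of 5′ ends the mean was 2.98 ± 3.12 sequence pairs (SD), with a median of 2. A single sequence pair was found at 645 of them (41.2%), and 72 (4.60%) held 10 or more. At overlaps of 11 to 20 nt, found in the same way, 54.4% of 9434 pairs of 5′ ends held 1 sequence pair and 1.45% held 10 or more.

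The count at 10 nt stood above its neighbours from 6 to 20 nt. There were 2020 sequence pairs at an overlap of 6 nt, 2213 at 7, 2323 at 8 and 2341 at 9, then 4673 at 10 and 2265 at 11. From 12 to 20 nt the counts were 2392, 2343, 1923, 2053, 1818, 1927, 1871, 1912 and 1839. The 10 overlaps of 11 to 20 nt had a mean of 2034 ± 218 (SD over overlaps), of which 10 nt held 2.30 times as many. In pairs of 5′ ends the count was 1566 at 10 nt against 943 ± 76.5, a ratio of 1.66, with 873 to 1069 at the single overlaps.

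Overlaps of 1 to 5 nt gave far higher counts, 69590, 26707, 6989, 3480 and 2954 sequence pairs, so that against all 19 other overlaps 10 nt held only 0.639 times their mean. At these overlaps the few letters compared often matched between sequences that did not lie head to head. Strand was called independently, from stretches of 12 nt shared with overlapping sequences of the same strand. At 1 nt, 66334 sequence pairs had both strands called and 886 (1.34%) of them lay head to head on opposite strands. The share was 18.8% at 3 nt, 53.3% at 4 nt and 84.7% at 5 nt. At 10 nt all 2704 pairs with both strands called lay head to head, and 0 did not. Among pairs with opposite strands called, 10 nt held 2704 against 1149 ± 158 over all 19 other overlaps, a ratio of 2.35, and the highest other overlap was 1381. Overlaps of 11 to 20 nt therefore serve as the background below.

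First bases separated the 10-nt pairs from the background. U started 1 partner, and not the other, in 868 pairs of 5′ ends (55.4%, exact 95% interval 52.9 to 57.9%), 2.15 times the 404 ± 41.4 at overlaps of 11 to 20 nt. U started both partners in 580, 1.51 times the background of 385 ± 30.7. Neither partner started with U in 118 (7.54%), where the background was higher, 155 ± 16.8 with 126 to 180 at the single overlaps. The excess at 10 nt thus lay in pairs with at least 1 U. Since base 10 of one partner is the complement of base 1 of the other, each U partner faces A at position 10, which follows from the rule and was not counted as a further result.

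In pairs with 1 U the other partner started with A in 351, with C in 310 and with G in 207. Each of these kinds exceeded its background by a similar ratio, 2.22 for A, 2.05 for C and 2.19 for G. Among all 5576 member sequences U started 72.5% (71.4 to 73.7%), compared with 67.1% of sequences paired at 11 to 20 nt and 68.7% of all sequences of 24 to 32 nt. With each 5′ end counted once the share was 64.8% at 10 nt and 64.6% at 11 to 20 nt, a difference within the counting error. Counted by 5′ end and without regard to place, the members thus had as much U as the ends paired at 11 to 20 nt. Among all 1049429 5′ ends with a called strand the share was lower, 60.9%.

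The 2 kinds of place differed, however. In the 100 windows of 20 kb with most listed sequences, U started 71.3% of members, 56.7% of sequences paired at 11 to 20 nt and 60.2% of all sequences of 24 to 32 nt. Outside these windows the shares were 74.6%, 74.7% and 70.8%. Neither partner started with U in 8.42% of 819 pairs inside against 29.2% at 11 to 20 nt, and in 6.56% of 747 outside against 7.86%. The first bases of the members stood apart mainly in the rich windows. The intervals given cover counting error only, and neighbouring sequences of a precursor are not independent.

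The partners differed by strand. In those of the 100 rich windows where at least 75% of sequences with a strand lay on 1 strand, that strand is called the main strand here. This held for 685 pairs of 5′ ends at 10 nt in 56 windows. The main-strand end started with U in 79.6% (76.3 to 82.5%) of them, against 49.4% (47.6 to 51.1%) of 3236 pairs at 11 to 20 nt. The end on the other strand started with U in 38.7% (35.0 to 42.4%) at 10 nt and 42.2% (40.5 to 43.9%) at 11 to 20 nt. The main-strand partners thus started with U far more often at 10 nt than at 11 to 20 nt, and the partners opposite did not.

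By combination, U on the main strand alone was found in 364 pairs at 10 nt against 90.6 ± 15.8 at 11 to 20 nt, a ratio of 4.02. U on both strands was found in 181 against 69.2 ± 7.57 (ratio 2.62). U on the other strand alone was found in 84 against 67.3 ± 8.62, where single overlaps reached 86. U on neither was found in 56 against 96.5 ± 10.8. The 10-nt excess in these windows lay where the main strand supplied the U.

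Main-strand ends of 10-nt pairs also carried more 3′ ends, 2.93 ± 1.87 (SD) listed sequences per 5′ end against 2.18 ± 1.53 at 11 to 20 nt. Ends on the other strand had 1.41 ± 0.930 and 1.37 ± 0.853. The higher U share was found among main-strand ends with a single listed sequence, 69.0% (62.3 to 75.2%) of 213 against 40.5% of 1541. It was also found among those with 2 or more, 84.3% of 472 against 57.5% of 1695. Where at least 95% of a window's strand-called sequences lay on 1 strand, the main-strand share was 86.4% at 10 nt and 54.2% at 11 to 20 nt.

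Regardless of strand, in the 868 pairs with 1 U the U end had more listed 3′ ends than its partner in 423 (48.7%), fewer in 98 (11.3%) and as many in 347. At 11 to 20 nt the corresponding shares were 29.2% and 14.2%. The number of listed 3′ ends is no read count, although an abundant piRNA is more likely to be listed with several.

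The pairs were concentrated in the windows richest in listed sequences. Dense stretches of this kind are known as piRNA clusters, the loci of long piRNA precursors. Of the 1566 pairs of 5′ ends, 819 (52.3%, 49.8 to 54.8%) lay in the 100 rich windows, which held 19.4% of sequences of 24 to 32 nt and 40.1% of pairs at 11 to 20 nt. Inside these windows the 10-nt count was 2.16 times the background of 379 ± 42.9, and outside them 747 pairs stood against 565 ± 39.2 (ratio 1.32, highest single overlap 637). In sequence pairs the ratios were 3.02 inside and 1.47 outside. An excess at 10 nt was thus present in both, and larger in the rich windows. Of the 100 rich windows 62 held a 10-nt pair, and of 564 windows with a pair 398 held exactly 1.

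The 10 windows with most pairs held 503 of the 1566 (32.1%), and 97995 of the 2219118 listed sequences. The windows were ranked by their pairs, which favours a high share. Background pairs were concentrated there too: the window at 27460001 of chromosome 17 had a mean of 68.9, against 943 over the whole list. Part of the concentration was thus shared with the background. The bidirectional cluster of chromosome 17 led: 27460001 to 27480000 held 141 pairs of 5′ ends (background 68.9 ± 8.81), 27440001 to 27460000 held 74 (34.7 ± 7.73) and 27480001 to 27500000 held 37 (15.3 ± 2.58). The plus strand held 90.5% of the strand-called sequences in the first of these windows, 0.420% in the second and 99.7% in the third. Chromosome 6 from 127740001 to 127760000 and chromosome 2 from 92420001 to 92440000 each had 46, with backgrounds of 15.2 ± 5.39 and 17.9 ± 5.22. The window of chromosome 6 had sequences of both strands (72.7% plus), whereas that of chromosome 2 had 99.1% on the plus strand. Pairs were thus found also where the opposite strand made up a small share of the strand-called sequences. A sequence without an overlapping neighbour of its own strand got no call, so the share of the rarer strand may be too low.

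The window at 80960001 to 80980000 of chromosome 7 held 36 (19.3 ± 2.95) and that at 113760001 to 113780000 of chromosome 5 held 35 (12.9 ± 2.77). The window at 74460001 to 74480000 of chromosome 15 held 32 (12.8 ± 2.90) and that at 67560001 to 67580000 of chromosome 9 held 30 (12.1 ± 2.73). In each of these 9 windows the 10-nt count was above that at every overlap of 11 to 20 nt. The windows were ranked by that count, so this is a description of where the pairs lay.

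The tenth window behaved differently. At 39980001 to 40000000 of chromosome 17, where sequences match the annotated ribosomal RNA gene CT010467.1, there were 26 pairs at 10 nt against 26.3 ± 3.83 at 11 to 20 nt. In sequence pairs it held 139 against a mean of 151. Neither partner started with U in 12 of the 26, compared with 14 of 141 in the first window. The count at 10 nt lay within the 21 to 32 found at the single overlaps of 11 to 20 nt. Ribosomal RNA genes have many copies, so that the listed place of a sequence is uncertain. Without this window the ratio for sequence pairs over the whole list was 2.41.

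Of the first 20 windows 13 were rich and had a main strand, and in 12 of them the main-strand end started with U more often at 10 nt than at 11 to 20 nt. In the chromosome 17 windows the shares were 75.9% against 48.5% (27460001), 87.8% against 45.0% (27440001) and 81.1% against 54.3% (27480001). On chromosome 15 at 74460001 U started 90.6% of 32 main-strand ends against 49.2%, and on chromosome 9 at 67560001 it started 86.7% of 30 against 42.2%. The exception was the neighbouring window of chromosome 9 at 67580001, with U on 31.3% of 16 main-strand ends and on 81.3% of the ends opposite. The ribosomal RNA window had the next lowest main-strand share, 42.3% of 26 against 21.7%.

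By chromosome, 17 held 357 pairs of 5′ ends (22.8%), or 2.66 per 1000 listed sequences of 24 to 32 nt. Its background at 11 to 20 nt was also the highest, 190, giving a ratio of 1.88. Chromosome 7 followed with 150 pairs (ratio 1.79), chromosome 2 with 132 (2.16), chromosome 10 with 117 (1.69) and chromosome 5 with 114 (1.93). The ratio of chromosome 17 was thus below those of chromosomes 2 and 5, and below that of chromosome 6 (1.95). The X chromosome held 3, or 0.0735 per 1000 sequences, below its background of 5.50 at 11 to 20 nt. Chromosomes 3 and 19 were also below theirs, with 14 against 16.6 and 21 against 23.9, and the Y and mitochondrial chromosomes held 0 pairs. No 10-nt excess was thus seen on chromosomes X, 3 and 19, but these counts are too small to tell whether one was absent.

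The ratio to the background changed with the length of the member. Counted by pair membership, with partners of any listed length, sequences of 24 nt had 726 memberships at 10 nt against 192 ± 29.4 (ratio 3.78), and those of 25 nt 1301 against 426 ± 76.6 (ratio 3.05). From 26 to 31 nt the ratio lay between 2.10 and 2.38, and at 32 nt it was 3.22 from 37 memberships. Just outside the length limit, sequences of 23 nt had 319 memberships against 69.5 ± 23.4 (ratio 4.59). In the rich windows the ratio fell from 4.19 at 24 nt to 2.77 at 28 nt and rose to 3.27 at 30 nt. The excess in memberships was thus largest, among lengths with over 100 memberships, at the short end. Memberships count each 3′ variant with each partner variant, so 5′ ends with many listed 3′ ends weigh more. Ends with at least 5 made up 6.93% at 10 nt and 3.10% at 11 to 20 nt. Their part in the ratios by length was not tested.

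Mean length differed more by place than by pairing. Members had a mean length of 27.0 ± 1.65 nt (SD), against 27.1 ± 1.56 at 11 to 20 nt and 27.2 ± 1.55 for all sequences of 24 to 32 nt. Inside the rich windows the means were 26.8 for members and 26.7 for all sequences, and outside 27.3 and 27.4. Pairs in which both sequences had 24 to 28 nt, the size range known for Mili, numbered 3174 (ratio 2.39). Pairs of 1 such sequence with 1 of 29 to 32 nt numbered 1338 (ratio 2.13), and pairs of 2 sequences of 29 to 32 nt numbered 161 (ratio 2.07). All 3 size combinations exceeded every overlap of 11 to 20 nt, whose highest counts were 1643, 693 and 98. RNA was selected at about 28 to 30 nt on a gel, so that lengths reflect that choice too.

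Members matched annotated exons less often than the list did. A match was found for 38.8% of members (37.6 to 40.1%), for 49.9% of sequences paired at 11 to 20 nt and for 59.3% of all sequences of 24 to 32 nt. In the sense direction of protein-coding exons lay 16.02% of members, 26.3% of sequences paired at 11 to 20 nt and 52.8% of all. Sequences only antisense to exons, of a protein-coding gene, made up 9.29% of members, 12.3% at 11 to 20 nt and 1.25% of all. Their share among members was thus below that at 11 to 20 nt and above that of the whole list. The latter is favoured by the rule, which needs a partner on the opposite strand. Pairs of 5′ ends with no exon match on either side numbered 858, 1.92 times the background. Their ratio was above that of pairs on mRNAs, given next.

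On mRNAs, 446 pairs of 5′ ends had 1 partner in the sense direction of a protein-coding exon and the other only antisense to one, against a mean of 343 at 11 to 20 nt, a ratio of 1.30. The single overlaps had 314 to 382. Another 60 had both partners sense to protein-coding exons, against 43.1 ± 9.37 with a highest value of 60. The count at 10 nt was above every single overlap in the first set and equal to the highest in the second. Of 860 member sequences sense to coding transcripts 48.8% lay in the 3′ untranslated region, 34.9% in coding sequence and 16.3% in the 5′ untranslated region, next to 42.7%, 39.2% and 18.1% of those paired at 11 to 20 nt.

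Members matched 410 protein-coding genes, mostly with few sequences. Stox1, which encodes a winged-helix DNA-binding protein, had most, with 24 sense and 31 antisense members between 62122198 and 62128455 of chromosome 10. Its pairs numbered 14 at 10 nt and 11.7 ± 1.64 at 11 to 20 nt, with a highest value of 14. Carhsp1, an RNA-binding protein gene, had 36 members and 10 pairs against 9.20 ± 2.04. For these genes 10 nt did not stand above other overlaps.

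The zinc finger factor gene Maz also had 36 members, in 8 pairs against 4.80 ± 1.40 (highest 7), the transcription factor gene Sox4 had 6 pairs against 3 ± 1.05 (highest 5) and Fam174b had 6 against 1.90 ± 1.52 (highest 4). These were the 3 of the 10 protein-coding genes with most members whose 10-nt count was above every overlap of 11 to 20 nt. Bcl2l13, a mitochondrial protein gene of the Bcl2 family, had 9 pairs where another overlap had 10. Gtpbp8, Elfn2, the germ cell RNA helicase gene D1Pas1 and the ubiquitin ligase gene Rffl had 5 to 7, each reached or passed by another overlap. Counts per gene are too small to rank genes by their excess. The genes were chosen by their members at 10 nt, which favours a high count there, so this is a description.

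The pair of 5′ ends with most sequence pairs in these 10 genes, 16, lay in the coding sequence of Maz on chromosome 7, with 4 sequences on each strand. The pair shown after it, which came next with 8 sequence pairs, lay in the coding sequence of Stox1 with 8 antisense sequences and 1 sense sequence. Both genes are on the minus strand, and these pairs were chosen for display after their values were seen.
chr7:134168015-134168044 plus, antisense to Maz: CGGAAATATAagccgagctcagcatcttgc
chr7:134167997-134168024 minus, sense to Maz: TATATTTCCGaccacatgaaggtgcaca
chr10:62127305-62127334 plus, antisense to Stox1: TAAACACAGAgaactgcagcccccgtcatc
chr10:62127291-62127314 minus, sense to Stox1: TCTGTGTTTAgaggacgatgactt
In the Maz pair the mRNA-sense partner started with U and the antisense partner with C. In the Stox1 pair both partners started with U.

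Among noncoding genes, Gm10505 in the chromosome 17 cluster had 101 sense and 52 antisense members in 35 pairs, against 12.1 ± 3.11 at 11 to 20 nt. Gm21269 on chromosome 7 had 85 and 46 in 28 pairs (14.7 ± 2.79), and Gm49794 on chromosome 17 had 72 and 22 in 18 pairs (8.30 ± 1.77). In the whole list Gm10505 had 3046 sense and 71 antisense sequences of 24 to 32 nt, so that 73.2% of the antisense sequences were members, where a single overlap of 11 to 20 nt took in 22.3% on average. Gm21269 had 78 antisense sequences, of which 59.0% were members (26.7% at 11 to 20 nt), and Gm49794 had 38, of which 57.9% were (24.7%). Most of the few antisense sequences of these precursors were thus partners in 10-nt pairs. Of the sense sequences 1.04% (Gm49794) to 3.32% (Gm10505) were. The genes were chosen by their members at 10 nt, which favours high shares. Antisense members made up 15 of 22 antisense sequences in Gm10619, but 8 of 33 in AC140207.2, 5 of 32 in Gm49774 and 8 of 54 in Gm37912.

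Over the rich windows, the share of the rarer strand with a 10-nt partner was counted among strand-called sequences only. The gene shares above took in every sequence matched antisense to the gene, with or without a strand call. The window shares therefore cannot be compared directly with the gene shares, only with those at 11 to 20 nt. In windows with at least 95% of sequences on 1 strand, 245 of 995 sequences called on the other strand (24.6%) had a 10-nt partner, against 92.6 ± 10.8 at 11 to 20 nt. On the main strand 1240 of 319731 had one (0.388%), against 380 ± 53.3. With the limit at 75% the share on the other strand was 9.26% of 6990, against 4.36% on average at 11 to 20 nt. In the ribosomal RNA window the rarer direction of CT010467.1 is sense, and 39.5% of its 114 sense sequences had a 10-nt partner, against 44.9% at 11 to 20 nt. Of its 1396 antisense sequences 4.80% had one, against 5.17%.

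Of the 10 noncoding genes with most members, 7 had more pairs at 10 nt than at any overlap of 11 to 20 nt. Choosing genes by their members at 10 nt favours this, so it too is a description. The other 3, CT010467.1 (24 pairs against 25.0 ± 2.83), Gm42418 (17 against 19.9 ± 2.96) and AY036118 (8 against 9.10 ± 0.738), are annotated over each other in the ribosomal RNA window of chromosome 17. The genes Gm10619, AC140207.2, Gm49774 and Gm37912 had 4 to 11 pairs. Member sequences matching microRNA genes numbered 8, and the share of all listed sequences that match such genes was not counted.

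Genes of the piRNA pathway itself supplied 0 members. Of 18 symbols listed, from the Piwi genes Piwil1, Piwil2 and Piwil4 through Tdrd1 and other Tudor genes to the helicase genes Mov10l1 and Ddx4, 17 had listed sequences of 24 to 32 nt. These numbered 1863 in the sense direction and 31 antisense, and 1 of the genes had a sequence paired at any of the 10 overlaps of 11 to 20 nt. Over the whole list, 893 of the 1150169 sequences of 24 to 32 nt sense to a protein-coding exon were members. With so low a share, 0 members does not set these genes apart.

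Few members began like a sequence listed elsewhere. The first 16 letters of 1.26% of members (0.980 to 1.58%) were also listed over 1000 bp away or on another chromosome, against 0.619% of sequences paired at 11 to 20 nt and 1.60% of all sequences of 24 to 32 nt. The 10-letter overlaps were almost all different, 1547 distinct ones in 1566 pairs when both orientations are taken as 1. The mean share of G and C in the first 10 letters was 39.5% for members, 41.8% at 11 to 20 nt and 40.4% for all sequences. Each sequence is listed at 1 place, so a partner placed at a different copy of a repeat could not be found. Of the members, 2178 (39.1%) also had a partner at an overlap of 11 to 20 nt, as had 19394 of all 2176742 sequences of 24 to 32 nt. These 2178 sequences belong to both sets, so the shares given for members and for sequences paired at 11 to 20 nt are not from separate sequences.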

How the data were processed

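The authors deposited 1 list for the series, in which each distinct sequence has a chromosome, a start and an end on NCBI mouse build 37 per the file headers (mm9 per the submitters' processing notes). It holds no count, strand or library. The aligner, its settings and the handling of sequences with several places: not given in the sources used here. Comparisons between groups were therefore not made, and the 3 libraries have no replicates.

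Pairs were found with Python 3.11.15, pandas 2.3.3 and numpy 2.4.6, by position and by the first letters over the whole overlap, for overlaps of 1 to 20 nt. Where rows centred on different points shared 12 nt at the same place in 1 orientation, strand was called (1747488 sequences, 78.7%). Exons were matched by sequence over the full length, on both strands and on the listed chromosome, to GENCODE vM21 transcripts (GRCm38), since the builds differ, and 58.8% of sequences matched. Its coordinates were not used. Windows of 20 kb were counted by start. The backgrounds are means ± SD over overlaps, not replicates, and intervals are exact Clopper-Pearson 95% intervals (SciPy 1.17.1). Pair finding and strand calls were tested on simulated data.

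Windows, displayed pairs and genes were taken by rank: the 10 windows with most pairs of 5′ ends, the leading pair in each of the first 8 not on chromosome 18, the 10 protein-coding and 10 noncoding genes with most members, and the genes of a piRNA pathway list. The members and lists were chosen with earlier results of these data known. Alternatives were other lengths, strand calls, overlaps, windows and units of counting.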

Additional observations from a re-analysis of the deposited data

Results flagged for a closer look

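Sequences outside 24 to 32 nt, left out of the members, also formed 10-nt pairs, beyond the level at other overlaps and nearly all through sequences under 24 nt. There were 539 sequence pairs with at least 1 such sequence at 10 nt, against 109 ± 31.6 (SD over overlaps of 11 to 20 nt, highest 162), a ratio of 4.96. In 537 of them a sequence was under 24 nt and in 2 one was over 32 nt, from 42069 and 307 listed sequences of these sizes. The latter are too few to show an excess. By length the ratio of memberships was 7.30 for 18 to 20 nt (54 memberships) and 4.95 for 21 nt (50). It was 5.89 for 22 nt (132) and 4.59 for 23 nt (319), each ratio being above the 3.78 at 24 nt. The 323 sequences outside 24 to 32 nt in these pairs started with U in 78.0%. Of the 539 pairs 491 (91.1%) lay in the 100 richest windows, where the ratio was 5.40, and 27483 of the listed sequences under 24 nt lay there as well.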

How the results depend on the processing

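The ratio of 10-nt pairs to the mean of the other overlaps depended on which overlaps were taken as background. With all 19 others it was 0.639. It was 0.473 with each pair of 5′ ends counted once, 0.605 with 24 to 28 nt, 0.570 without the window with most pairs and 0.785 for 5′ ends with at least 2 listed 3′ ends on both sides. It passed 1 with overlaps of 11 to 20 nt (2.30) and with the strand of both sequences called (2.35), and, chosen after seeing the data, with 6 to 9 and 11 to 20 nt (2.24). Against 11 to 20 nt, also chosen after seeing the data, it was 1.66 with each pair of 5′ ends once, 2.19 without the window with most pairs, 2.41 without the ribosomal RNA window, 2.39 with 24 to 28 nt and 2.43 with all listed lengths. At 1 nt 1.34% of pairs with both strands called lay head to head, and at 10 nt all did. The number of pairs was 4673, and 2704 with strand called, since fewer sequences had a strand. Members started with U in 64.8% with each 5′ end once, the rich windows held 48.4% of pairs at 10 kb and 54.9% at 50 kb, and 44.3% of 5′ ends matched an exon. The main-strand U share was 86.4% at a threshold of 95%, a measure chosen after seeing the data. Among 25 alternatives 7 stayed within the error or tolerance of the value they replace. No paired analysis was possible because each group has 1 library and the list names none. Depth is unknown, so an absent partner may be unsampled.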
